A study of Mus musculus with 12 samples.

Results

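The protein-coding genes that had no called YY1 peak at their promoters were examined in lineage-negative (Lin-) bone marrow cells. They were defined by the measured YY1 peak lists themselves: a gene annotated as protein_coding on chromosomes 1 to 19 was taken when none of its transcript starts lay within 3 kb of a peak in any of 4 lists. Of 20807 such autosomal genes, 10057 had no peak, which is 48.3% of all genes tested. For contrast, 7709 genes (37.1%) had a peak in all 4 lists, and 676, 999 and 1366 genes had a peak in 1, 2 and 3 lists. Absence of a peak is the definition of these 10057 unbound genes and is not a finding about them, so their families, positions and promoter sequences are described with no test.

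The 4 YY1 ChIP-seq libraries came from 3-month-old female mice of the strain 129Sv4/Jae x B6, 2 from wild-type (WT) mice and 2 from XistΔ/Δ mice. XistΔ/Δ is the homozygous knockout, in which both floxed Xist alleles (Xist 2lox) were removed by a Vav-iCre transgene. Vav1 regulatory sequences drive that Cre in blood cells, and nothing in the labels tells if WT animals also had the transgene. Lin- cells are bone marrow cells left after removal of cells with surface markers of mature blood lineages, a mixture of stem and progenitor cells, and the peak lists hold no RNA level against which that identity could be checked. Of the 12 samples in the series, 8 are libraries of histone marks and were not analysed here.

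YY1 (Yin Yang 1) is a zinc-finger protein found in most cell types that can activate or repress the genes it binds, and its best known sites contain the core ATGGC. It is known for binding close to the starts of genes that every cell uses, such as those for ribosomes and mitochondria. Many such genes start inside CpG islands, stretches in which the CG dinucleotide is not depleted, whereas genes used in a single tissue often start in CpG-poor sequence.

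Promoter sequences are shown first for 3 unbound genes of different kinds, an olfactory receptor, a neutrophil granule enzyme and an adult beta globin, and for 2 genes with a peak in all 4 lists, a ribosomal protein and a stem cell transcription factor. Each is the first gene of its list that fell in its class. Each line gives the 250 bases before the start as RefSeq places it (build GRCm38.p6), on the gene's own strand, and capitals mark a TATAAA match. The same stretches were searched on both strands for AANATGGCG, a YY1 motif, and none of the 5 held it.
Olfr1, chr11:73399496-73399745, minus strand: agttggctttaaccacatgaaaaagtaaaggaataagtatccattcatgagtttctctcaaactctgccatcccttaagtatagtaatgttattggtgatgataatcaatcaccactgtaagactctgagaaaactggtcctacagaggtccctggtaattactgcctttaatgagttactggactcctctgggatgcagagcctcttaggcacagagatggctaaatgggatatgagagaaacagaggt
Mpo, chr11:87793534-87793783, plus strand: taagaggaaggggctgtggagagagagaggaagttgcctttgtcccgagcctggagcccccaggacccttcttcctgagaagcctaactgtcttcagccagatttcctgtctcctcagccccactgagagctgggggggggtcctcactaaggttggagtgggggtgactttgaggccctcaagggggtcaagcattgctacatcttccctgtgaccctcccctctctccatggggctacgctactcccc
Hbb-bt, chr7:103813924-103814173, minus strand: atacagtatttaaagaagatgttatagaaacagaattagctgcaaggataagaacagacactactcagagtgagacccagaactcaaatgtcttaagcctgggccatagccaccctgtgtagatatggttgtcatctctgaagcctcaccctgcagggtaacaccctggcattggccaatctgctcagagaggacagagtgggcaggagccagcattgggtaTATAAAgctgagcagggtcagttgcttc
Rpl10a, chr17:28328221-28328470, plus strand: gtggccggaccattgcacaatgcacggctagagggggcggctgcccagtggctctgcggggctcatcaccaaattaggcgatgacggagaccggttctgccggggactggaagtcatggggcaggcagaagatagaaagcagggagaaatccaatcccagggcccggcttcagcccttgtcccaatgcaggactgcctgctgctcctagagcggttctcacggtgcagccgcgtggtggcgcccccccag
Meis1, chr11:19018970-19019219, minus strand: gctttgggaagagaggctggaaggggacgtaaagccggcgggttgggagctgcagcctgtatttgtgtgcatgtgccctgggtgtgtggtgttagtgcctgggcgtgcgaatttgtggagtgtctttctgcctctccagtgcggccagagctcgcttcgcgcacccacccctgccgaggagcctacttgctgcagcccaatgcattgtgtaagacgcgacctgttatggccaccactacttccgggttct

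The unbound promoters were poor in CG. No CG dinucleotide occurred in the stretches of Olfr1 and Hbb-bt and 2 occurred in that of Mpo, against 14 in Rpl10a and 13 in Meis1. The TATAAA match before Hbb-bt was the only one among the 5 stretches. The nearest peak to any start of Mpo lay 35.9 kb (replicate 1) and 33.4 kb (replicate 2) away in WT cells, and 36.4 kb and 29.2 kb away in XistΔ/Δ cells. For Hbb-bt, WT distances were 1371 and 430.0 kb, and XistΔ/Δ distances 1127 and 430.0 kb, whereas a peak overlapped a start of Rpl10a and of Meis1 in every library.

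The motif was most frequent at genes with a peak in all 4 lists, and genes with a peak in 1 to 3 lists held it about as often as unbound genes. Within 500 bp of the outermost start, AANATGGCG occurred on either strand in 1.07% of unbound genes (108 genes), in 1.09% of the 3041 genes with a peak in 1 to 3 lists (33 genes), in 15.0% of genes with a peak in all 4 lists (1156 genes) and in 6.23% of all genes. The shorter ATGGCG, which every such match contains, occurred in 15.1% of unbound genes, in 22.2% of genes with a peak in 1 to 3 lists, in 46.7% of genes with a peak in all 4 lists and in 27.8% of all genes. Stretches of 27 bases around the match nearest the start show what the matches look like on both sides, with the 9 motif bases in capitals and the strand that reads as the motif given. The first 4 belong to genes with a peak in all 4 lists (components of the respiratory chain and of cytosolic and mitochondrial ribosomes) and the last 4 to unbound genes (a keratin, an olfactory receptor and a pair of serpins). They were chosen, after the values were seen, from the first genes with a match in the order of their lists.
Ndufa6, chr15:82354214-82354240, minus strand: ttcctcggcAAGATGGCGgccgcggcc
Rpl13a, chr7:45128700-45128726, minus strand: cggctgccgAAGATGGCGgaggggcag
Rpl18, chr7:45715438-45715464, minus strand: acctcaacaAAGATGGCGggataagct
Mrpl27, chr11:94653790-94653816, plus strand: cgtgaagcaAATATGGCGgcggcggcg
Krt18, chr15:102027951-102027977, minus strand: tcagggcaaAAAATGGCGttttaaata
Olfr616, chr7:103568771-103568797, minus strand: cagggaagaAAAATGGCGaagtaagtt
Serpina1b, chr12:103830487-103830513, plus strand: gcctcttcaAAGATGGCGgacagaaat
Serpinb13, chr1:106981249-106981275, plus strand: agcaaatgcAAGATGGCGgacttcata

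All 8 stretches held the same letters outside the free position, yet the last 4 genes had no peak within 3 kb in any library. Krt18 lay between 24.66 and 25.02 kb from the nearest peak in the 4 libraries, and Olfr616 between 674.8 and 1122 kb. Of the 108 unbound genes with a match, 33 (30.6%) had its centre within 100 bp of the start, compared with 625 of 1156 genes (54.1%) with a peak in all 4 lists. A match is a description of the letters and does not show that YY1 binds there.

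CpG content and the motif together separated the genes further. Promoters were called CpG-rich when the ratio of observed to expected CG dinucleotides was at least 0.6 and GC content at least 50% within 500 bp of the outermost start. Of 1070 CpG-rich genes with AANATGGCG, 27 (2.52%) were unbound, against 1823 of 8440 CpG-rich genes without it (21.6%). Of 227 genes that were not CpG-rich but held the motif, 81 (35.7%) were unbound, against 8126 of 11070 (73.4%) with neither. The share unbound thus ran from 2.52% to 73.4% across the 4 combinations.

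The median CpG ratio was 0.25 in unbound genes (quartiles 0.13 and 0.51) and 0.77 in genes with a peak in all 4 lists (quartiles 0.65 and 0.87). It took values in between, 0.53, 0.58 and 0.68, in genes with a peak in 1, 2 and 3 lists. Taking each library's list alone, the median ratio of genes without a peak was 0.30 (WT replicate 1), 0.26 (WT replicate 2), 0.31 (XistΔ/Δ replicate 1) or 0.26 (XistΔ/Δ replicate 2), and that of genes with a peak was between 0.74 and 0.77. The 4 libraries therefore gave nearly the same contrast, in both genotypes. Among genes with a ratio under 0.2, 88.4% of 4698 were unbound, and among genes with a ratio of at least 1.0, 9.25% of 400 were.

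**Figure D1:**
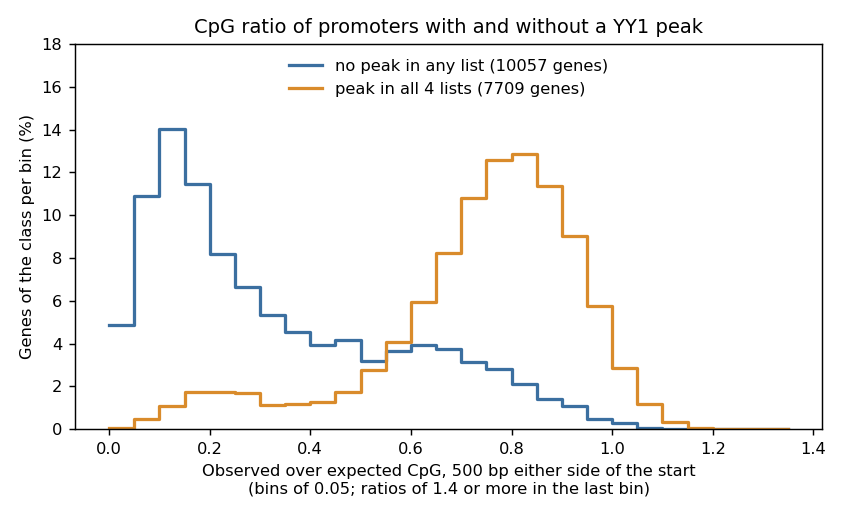
Distribution of the observed over expected CpG ratio within 500 bp of the outermost start, as the percentage of genes in bins of 0.05, for the 10057 unbound genes (blue) and the 7709 genes with a peak in all 4 lists (orange). Most unbound genes lie at low ratios around a median of 0.25, with a shoulder near 0.6 to 0.8, and most bound genes lie around a median of 0.77, with a small group at low ratios.

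Other promoter features also differed in level. A TATAAA between 40 and 21 bases before the start, on the gene's strand, was present in 4.01% of unbound genes (403 genes), 0.61% of genes with a peak in all 4 lists (47 genes) and 2.29% of all genes. Of the 477 genes with this TATA sequence, 84.5% were unbound. Divergent starts, with a protein-coding gene on the other strand starting within 1000 bp upstream, were found for 1.01% of unbound genes and 14.6% of genes with a peak in all 4 lists, and of the 1448 genes with such a neighbour 7.04% were unbound. A peak overlapping the start of such a neighbour also lies within 3 kb of the gene and counts for both. Unbound genes also had fewer annotated starts (median 2 against 5) and shorter bodies (median 11.6 against 24.4 kb). Each added start is another place where a peak can count, and of genes with a single start 75.9% were unbound, compared with 16.1% of genes with 10 or more starts.

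Most unbound genes were far from any peak and not narrowly outside the limit. The median distance from their starts to the nearest peak of any list was 70.6 kb (quartiles 22.3 and 240.7 kb). Only 1134 (11.3%) lay within 10 kb of a peak, whereas 4255 (42.3%) were more than 100 kb away and 1335 (13.3%) more than 500 kb away. The nearest peak lay within 3 kb of a start of another protein-coding gene for 6851 of them (68.1%). A peak lay inside the gene body, more than 3 kb from every start, in 545 (5.42%).

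The 3 genes just outside the limit were Pin1rt1 and Gapdhs, each 3001 bp from the nearest peak, and Gm17268 at 3005 bp. The 3 just inside it were Rpl3l at 2962 bp, Mybpc2 at 2976 bp and Ovol3 at 2981 bp. The peaks inside the limit of Rpl3l and Ovol3 overlapped starts of other genes, Ndufb10 and Tbcb. At the other end, the farthest was Cdh10, a cadherin, 5994 kb from the nearest peak, followed by Acot10, an acyl-CoA thioesterase, at 4603 kb, and Slitrk6, a neuronal membrane protein, at 4193 kb. For Acot10 the libraries ranged from 4603 to 5176 kb.

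The share of genes without a peak was lower in the deeper library of each genotype. From 24.9 M tags (aligned reads) 9553 peaks had been called for WT replicate 1, and from 50.0 M tags 15933 for WT replicate 2. The XistΔ/Δ libraries gave 10075 peaks from 23.1 M tags (replicate 1) and 18113 from 59.5 M tags (replicate 2). Genes without a peak made up 59.2% of all genes for WT replicate 1, 51.0% for WT replicate 2, 59.3% for XistΔ/Δ replicate 1 and 49.7% for XistΔ/Δ replicate 2. The replicate 2 libraries of both genotypes were thus lower than both replicate 1 libraries, and the genotypes overlapped. WT libraries averaged 55.1% ± 5.78 (SD, n = 2), compared with 54.5% ± 6.75 (SD, n = 2) among XistΔ/Δ libraries, a difference of -0.60 percentage points (XistΔ/Δ minus WT, two-sided exact permutation test, p = 1, where 2 against 2 cannot go below 0.333). Within replicate 1 the difference was 0.09 and within replicate 2 it was -1.28 percentage points.

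The same order held for the distance from the 10057 genes to the nearest peak of a library. The median was 116.0 kb in WT replicate 1, 82.9 kb in WT replicate 2, 113.7 kb in XistΔ/Δ replicate 1 and 76.0 kb in XistΔ/Δ replicate 2. These medians averaged 99.4 ± 23.5 kb for WT (SD, n = 2) against 94.9 ± 26.6 kb for XistΔ/Δ (SD, n = 2), a difference of -4.57 kb (two-sided exact permutation test, p = 0.667). With the first 9553 peaks of every list, the shares became 59.2% and 58.9% for WT, 60.2% and 58.9% for XistΔ/Δ, and the distance differed by 0.40 kb in the opposite direction.

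Genes that lacked a peak in one genotype mostly lacked it in the other. No peak was present in either WT list for 10531 genes, of which 95.5% were without a peak in any list, and in either XistΔ/Δ list for 10317 genes, of which 97.5% were. A peak in the deepest library alone, XistΔ/Δ replicate 2, kept 416 further genes out of the unbound set, and a peak in WT replicate 2 alone kept out 209, compared with 36 for WT replicate 1 and 15 for XistΔ/Δ replicate 1. There were 15 genes with a peak in both WT lists and no other and 43 with a peak in both XistΔ/Δ lists and no other.

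**Figure D2:**
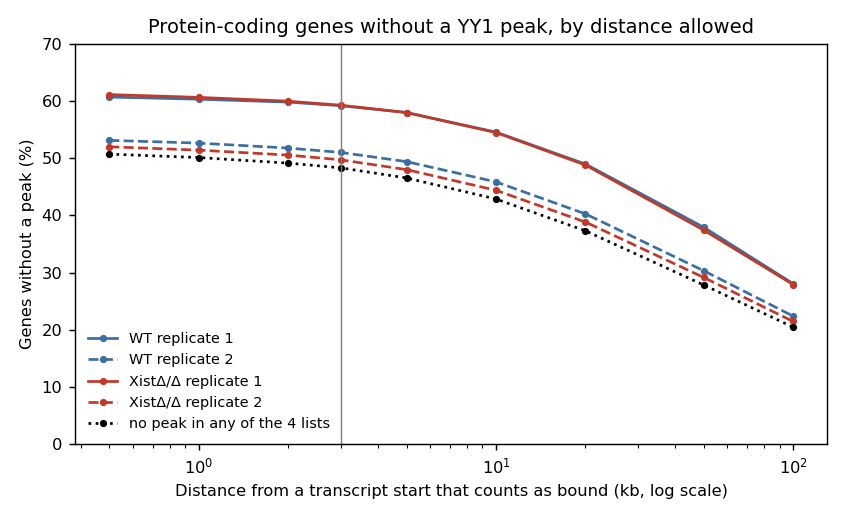
Percentage of the 20807 genes without a peak (vertical axis) against the distance from a transcript start that counts as bound (kb, log scale), for each library and for the 4 lists together (dotted). The replicate 1 curves of both genotypes lie on each other and above the replicate 2 curves at every distance; at 3 kb (grey line) the values are 59.2%, 51.0%, 59.3% and 49.7%, and 48.3% for the 4 lists together.

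Among gene families, grouped by the stem of the gene symbol, the olfactory and vomeronasal receptors stood first in number. These receptors detect odours and pheromones and are used in sensory neurons of the nose. Of 1128 olfactory receptor (Olfr) genes 1126 were unbound (99.8%), of 208 vomeronasal type 1 receptor (Vmn1r) genes 206, and of 119 vomeronasal type 2 receptor (Vmn2r) genes all 119. Together they made up 1451 of the unbound genes (14.4%), predicted genes with Gm or Rik symbols another 1356 (13.5%), and the remaining 7250 (72.1%) were other named genes. Without the receptors 44.5% of 19352 genes were unbound.

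The 4 receptors with a peak shared it with other genes or had it in deep libraries alone. Olfr56 and Vmn1r4 had a peak in all 4 lists, and in both cases the peak overlapped a start of another gene, Ifi47 (an interferon-induced GTPase) and Nt5c3 (a nucleotidase). Olfr6 lay 2.43 and 2.46 kb from a peak of WT replicate 2 and XistΔ/Δ replicate 2 and about 1145 kb from any peak of the replicate 1 libraries. Vmn1r235 lay 0.66 kb from a peak of XistΔ/Δ replicate 2 alone.

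The remaining stems with most unbound genes were large and mixed. Of 383 Zfp genes (zinc-finger proteins) 120 were unbound (31.3%) and 162 had a peak in all 4 lists. Of 234 Tmem genes (transmembrane proteins) 82 were unbound, of 170 Fam genes 76, of 136 Ccdc genes (coiled-coil proteins) 50, of 82 Cd genes (surface antigens) 44, of 63 Gpr genes (orphan G protein-coupled receptors) 44, and of 58 Il genes (interleukins and their receptors) 40. Zfp, Tmem, Fam and Ccdc were thus below the share of all genes, 48.3%, whereas Cd, Gpr and Il were above it. By contrast 56 of 56 Krtap genes (keratin-associated proteins of hair) and 50 of 53 Krt genes (keratins of epithelia and hair) were unbound.

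Of 250 stems with at least 10 genes, 42 had more than 90% of their genes unbound, 44 had fewer than 10%, 50 had no gene with a peak in all 4 lists and 22 had no unbound gene. Every gene was unbound in 14 stems with at least 15 genes, 416 genes in all. They were receptors for taste (Tas2r, 35 genes), trace amines (Taar, 15) and pheromones (Vmn2r), the pheromone-related Esp (15) and Mup (22) genes, the skin and hair families Krtap and Lce (19), the liver and plasma families Serpina (23), Ces (19) and Cyp2c (15), the alpha defensins (Defa, 22), secretoglobins (Scgb1b, 15), clustered protocadherins (Pcdhb, 22) and the Wnt signalling proteins (19). Of these stems, 12 had a median CpG ratio of at most 0.17, but that of Pcdhb was 0.38 and that of Wnt 0.66. The Wnt genes also lay on 10 chromosomes, whereas Serpina, Ces, Cyp2c, Lce, Mup and Pcdhb each lay on 1.

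Part of these families consists of near-identical copies, and reads that could not be placed with high confidence had been removed. A start was called unique when at least 90% of the 50-base words within 500 bp of it occur once in the 21 assembled chromosomes. The median share of unique words per gene was 11.7% in Defa, 18.2% in Mup and 40.5% in Scgb1b, but 100% in Olfr, Tas2r, Ces, Lce, Pcdhb and Wnt. Over all genes, 80.9% of the 2397 genes whose start was not unique and 44.1% of the 18410 whose start was unique were unbound. Restricted to unique starts, 930 of 931 olfactory receptors, 96 of 98 Vmn1r genes and 52 of 52 Vmn2r genes were unbound. With the same restriction 39 of 40 keratin genes and 29 of 32 defensin genes were unbound.

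**Figure D3:**
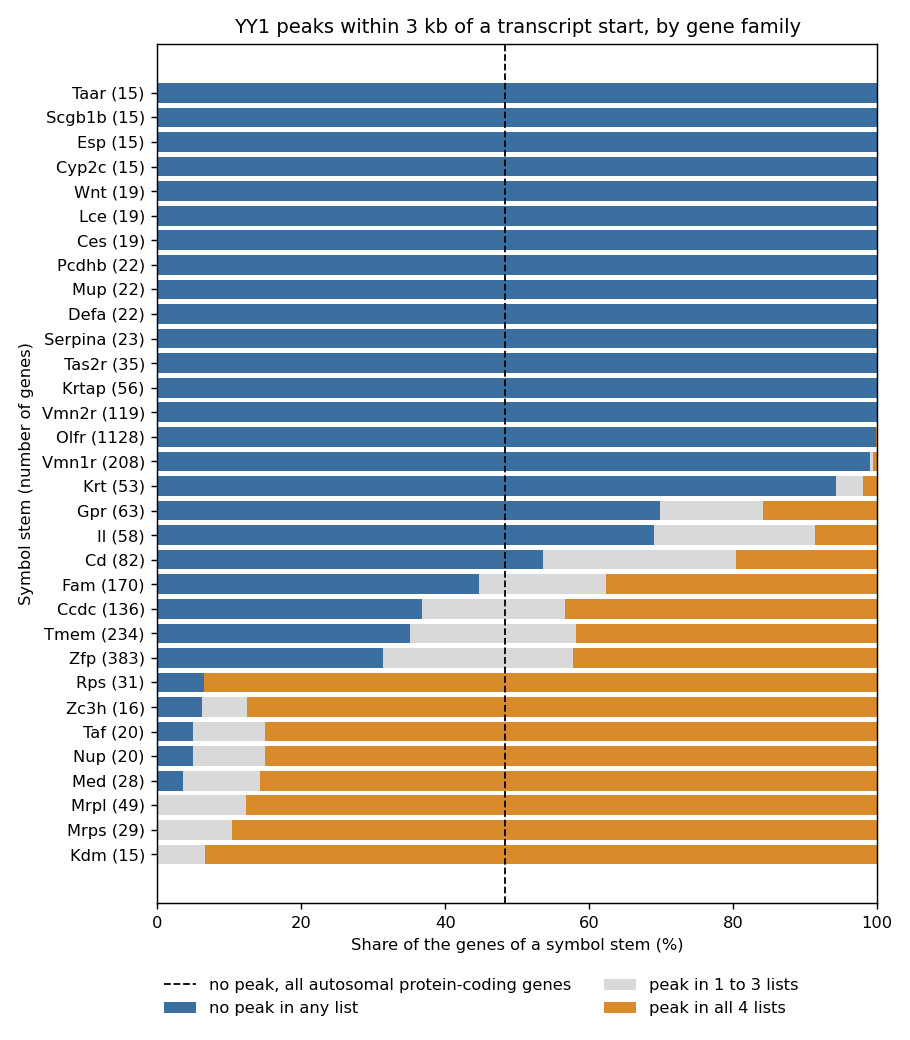
Share of the genes of each named symbol stem (number of genes in brackets) with no YY1 peak in any list (blue), with a peak in 1 to 3 lists (grey) and with a peak in all 4 lists (orange). The dashed line marks 48.3%, the share unbound of all autosomal protein-coding genes; 14 stems are entirely unbound, and the 8 stems at the bottom have at most 6.45% unbound.

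At the other end stood families of housekeeping genes. The 8 stems of at least 15 genes with the highest share bound in all 4 lists were Rps (cytosolic ribosomal proteins, 29 of 31 genes), Kdm (histone demethylases, 14 of 15), Mrps and Mrpl (mitochondrial ribosomal proteins, 26 of 29 and 43 of 49), Zc3h (14 of 16), Med (Mediator subunits, 24 of 28), Nup (nucleoporins, 17 of 20) and Taf (TBP-associated factors, 17 of 20). Their 6 unbound genes were Rps27rt, Rps12-ps3, Zc3h12d, Med12l, Nup210l and Taf1b. Rps27rt and Rps12-ps3 are copies whose starts were 63.9% and 52.5% unique. Med12l had a CpG ratio of 0.85 and lay between 22.3 and 94.3 kb from a peak in the 4 libraries. In lists of whole complexes, 2 of 76 cytosolic ribosomal protein genes were unbound (Rpl10l, at 1111 kb, and Rpl39l, at 241.3 kb), as were 2 of 49 proteasome genes (Psma8 and Psme2b), 0 of 78 mitochondrial ribosomal protein genes and 0 of 35 NADH dehydrogenase genes. The cytosolic ribosomal list does not hold Rps27rt or Rps12-ps3. By symbol stem, 7 of 49 Rpl genes were unbound (14.3%). Rpl10l, Rpl39l and Psma8 are testis variants of subunits that other cells use.

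Blood genes fell on both sides. Of 34 stem and progenitor genes 10 were unbound (29.4%, beside 48.3% of all genes) and 16 had a peak in all 4 lists (47.1%, beside 37.1% of all genes). Those with a peak in all 4 lists were mostly transcriptional regulators (Bmi1, Cebpa, Erg, Etv6, Fli1, Hoxa9, Ikzf1, Lmo2, Lyl1, Meis1, Myb, Runx1, Spi1 and Tal1), joined by the growth factor Angpt1 and the receptor Csf1r. The 8 with a peak in 1 to 3 lists were Cd34, Cd48, Csf2rb, Flt3, Gata2, Gfi1, Hlf and Kit. The unbound ones included genes for surface receptors or antigens (Csf3r, Epor, Il7r, Ly6a, Procr, Slamf1 and Tek) and for transcription factors (Gfi1b and Mecom). Epor, the erythropoietin receptor, lay 6.12 and 6.02 kb from a peak of the WT libraries and 6.03 and 5.90 kb from one of the XistΔ/Δ libraries, and Csf3r, the receptor of granulocyte colony-stimulating factor, 8.56 and 8.48 kb (WT) or 8.71 and 6.27 kb (XistΔ/Δ). Tek, an angiopoietin receptor, was the farthest, at 135.6 to 135.9 kb. For Epor and Tek the 4 libraries thus placed the nearest peak at nearly the same distance. In a mixture of cells, a site bound in few cells and a site bound weakly in many cannot be told apart.

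In lists of genes of the later blood lineages the unbound share ranged from 43.8% (erythroid) to 100% (globins), beside 48.3% of all protein-coding genes. All 10 globin genes lacked a peak: Hba-x, Hba-a1 and Hba-a2 of the alpha cluster lay at 8.37 to 8.52 kb, 15.5 to 15.6 kb and 28.5 to 28.6 kb from one, and the 5 beta cluster genes at least 390.7 kb away. Of these 10 starts 4 were unique. In the list of neutrophil granule proteins, which also holds other neutrophil genes such as Ltb4r1, 11 of 18 genes were unbound (61.1%). None had a peak in all 4 lists, with 0 genes bound in WT replicate 1, 5 in WT replicate 2, 1 in XistΔ/Δ replicate 1 and 7 in XistΔ/Δ replicate 2. The unbound ones were Camp, Cd177, Ctsg, Elane, Fcnb, Lcn2, Ltf, Ly6g, Mmp8, Mpo and Ngp. Elane, neutrophil elastase, lay 22.2 and 7.87 kb from a peak of the WT libraries and 21.9 and 3.78 kb from one of the XistΔ/Δ libraries, and Lcn2, lipocalin, between 3.66 and 3.87 kb in the 4 libraries. The 7 with a peak were Chil3 in 3 lists, Lyz2, Ltb4r1, Mmp9 and Prtn3 in 2, and S100a8 and S100a9 in 1.

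**Figure D4:**
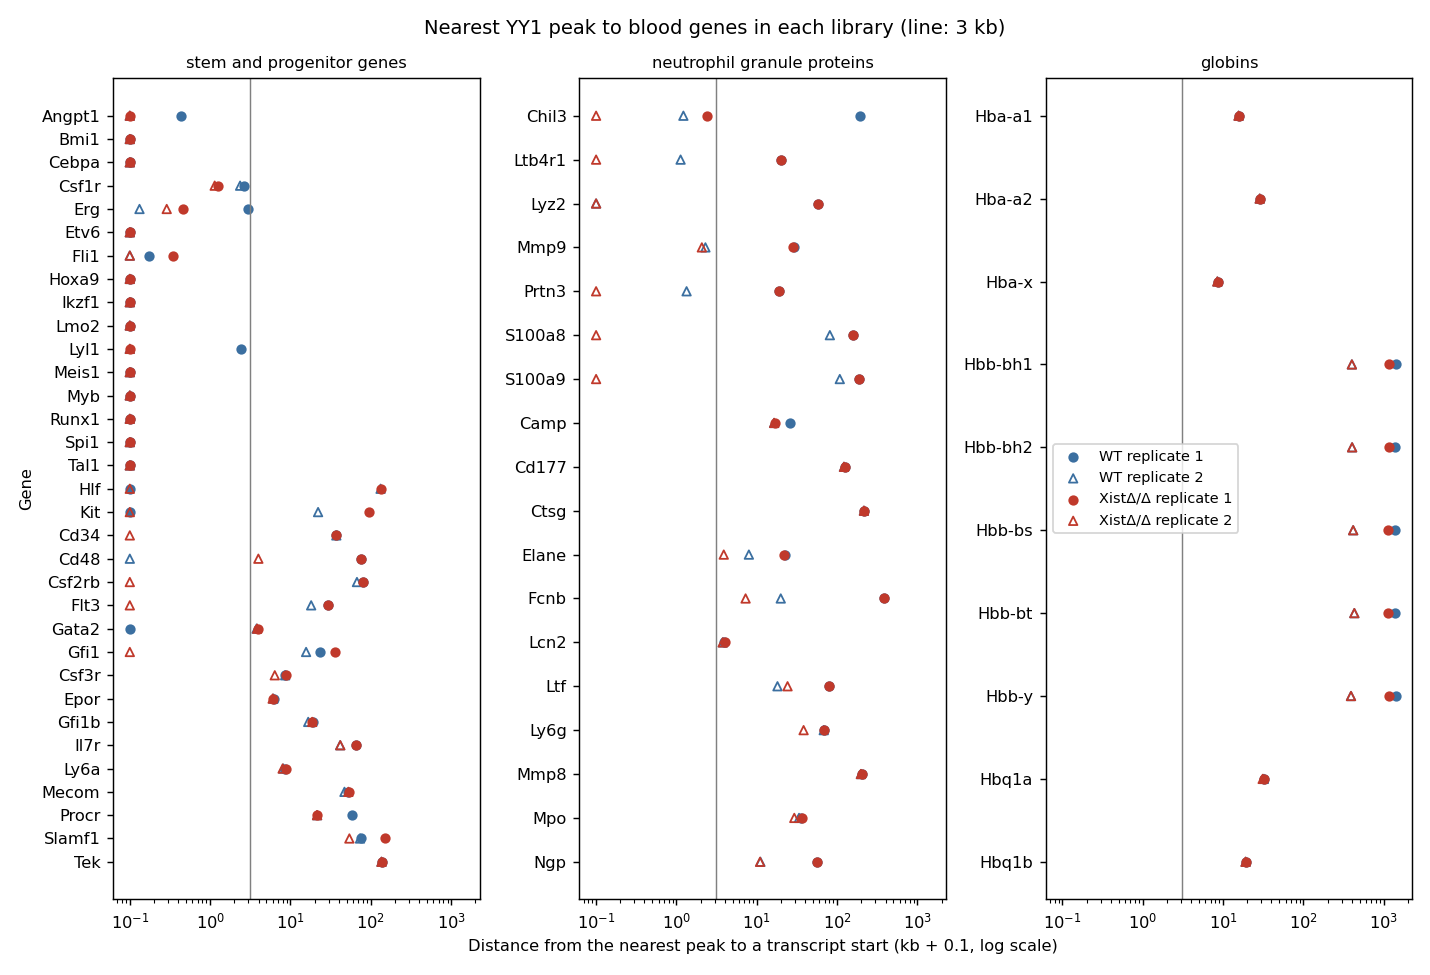
Distance in kb (plus 0.1, log scale) from the nearest YY1 peak to a transcript start of genes in the stem and progenitor, neutrophil granule protein and globin lists, one point per library (WT blue, XistΔ/Δ red; replicate 1 filled circles, replicate 2 open triangles). The grey line marks 3 kb: 16 stem and progenitor genes have all 4 points left of it, and no gene of the neutrophil or globin list does.

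Of 16 autosomal erythroid genes 7 were unbound (43.8%, beside 48.3% of all genes) and 5 had a peak in all 4 lists (31.25%, beside 37.1% of all genes). The unbound ones included Ank1, Car1, Ermap, Kel, Slc4a1 and Sptb, several of which encode membrane skeleton and transport proteins of the red cell. Of 14 platelet and megakaryocyte genes 9 were unbound (64.3%), and those with a peak were Gp9, Itga2b, Itgb3, Selp and Vwf, none in all 4 lists. Of 19 T cell genes 15 were unbound (78.9%), with peaks at Cd2, Cd3d, Cd5 and Lck. Of 19 B cell genes 12 were unbound (63.2%), with peaks at Bank1, Blk, Cd72, Cd79b, Pax5 and Vpreb1 among others. Of these, Vpreb1, which encodes part of the surrogate light chain of B cell precursors, had one in all 4 lists. That peak also overlapped a start of another gene, Top3b. Of 18 macrophage and dendritic cell genes 11 were unbound (61.1%), with peaks at Adgre1, Cd163, Cd68, Itgax, Vcam1 and Xcr1 among others. In each of these 5 lists every gene with a peak in a single list had it in a replicate 2 library, the deeper of each genotype.

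Immune families were mostly unbound as well. The counts were 27 of 33 interleukins (peaks at Il12a, Il15, Il18, Il1b, Il27 and Il6), 28 of 35 chemokines (peaks at Ccl25, Ccl27a, Ccl28, Ccl3, Ccl4, Ccl6 and Ccl9), 17 of 18 type I interferons (a peak at Ifna13), 24 of 26 natural killer lectin-like receptors (peaks at Klra17 and Klrb1f), 17 of 19 Ms4a genes (peaks at Ms4a6c and Ms4a7), 9 of 15 Fc receptor genes (peaks at Fcer1g, Fcgr2b, Fcgr3, Fcgr4, Fcrl1 and Fcrla) and 5 of 9 toll-like receptors (peaks at Tlr2, Tlr4, Tlr6 and Tlr9). Il1b, Il6, Il18, Il27, Ccl27a, Ccl3, Ccl4, Ifna13, Ms4a7, Fcgr3 and Tlr2 had their peak in XistΔ/Δ replicate 2 alone, the deepest library. The peak at Ccl25 was in all 4 lists and overlapped a start of another gene, Elavl1. These shares ran from 55.6% for toll-like receptors to 94.4% for type I interferons, beside 48.3% of all genes. Those of the toll-like receptors (5 of 9) and Fc receptors (9 of 15, 60%) lay near the share of all genes, in small lists.

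In lists of genes used in other tissues the unbound share ranged from 73.9% to 91.7%, beside 48.3% of all genes. Unbound were 22 of 24 neuronal genes (91.7%, peaks at Gap43 and Slc17a7), 18 of 24 muscle contractile genes (75%, peaks at Mylpf, Neb, Tnnc1, Tnni2, Tnni3 and Tnnt1), 20 of 25 hepatocyte plasma protein genes (80%, peaks at Apoa2, Apoh, F10, Hp and Trf), 17 of 23 sperm and testis genes (73.9%, peaks at Catsper2, Dazl, Tnp2, Tssk1, Tssk6 and Zpbp) and 168 of 190 ion channel and glutamate receptor genes (88.4%). Of the genes of the first 4 lists with a peak in every library, the peaks at Apoa2, Catsper2, Mylpf, Tnnc1, Tnp2, Tssk1, Tssk6 and Zpbp each overlapped a start of another gene, for example Tomm40l at Apoa2 and Socs1 at Tnp2.

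Among families of secreted and barrier proteins, unbound were 57 of 57 keratin-associated protein genes, 50 of 53 keratins (peaks at Krt8, Krt80 and Krt86), 36 of 36 late cornified envelope and small proline-rich protein genes, 60 of 64 defensins (peaks at Defb25, Defb29, Defb30 and Defb42), 55 of 60 serpins (peaks at Serpinb1b, Serpinb6a, Serpinb9, Serpinf1 and Serpini1), 26 of 26 prolactin family genes, 27 of 28 pregnancy-specific glycoprotein and Ceacam genes (a peak at Ceacam18), 22 of 22 major urinary proteins, 34 of 34 secretoglobins and 27 of 27 kallikreins. Among enzymes of drug and lipid metabolism they were 90 of 99 cytochrome P450 genes (peaks at Cyp20a1, Cyp27a1, Cyp2ab1, Cyp2j9, Cyp2r1, Cyp39a1, Cyp4f13, Cyp4f18 and Cyp4v3), 19 of 21 UDP-glucuronosyltransferases (peaks at Ugt1a1 and Ugt1a7c) and 19 of 19 carboxylesterases. Among further receptors they were 52 of 53 taste and trace amine receptors (a peak at Tas1r1, which overlapped a start of Nol9) and 20 of 20 Mas-related receptors. Solute carriers, which are used by many tissues, stood near the share of all genes, with 169 of 356 unbound (47.5%), and zinc finger proteins below it, with 120 of 385 (31.2%). In these lists the median distance of the unbound genes ran from 43.2 kb for solute carriers to 844.2 kb for the prolactin family.

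A minority of unbound genes had CpG-rich promoters. They numbered 1850, or 18.4% of the unbound genes, against 45.7% of all genes and 78.7% of genes with a peak in all 4 lists. Of these 1850 genes 94.8% had a unique start, against 88.5% of all genes. The median distance of the 1850 genes to a peak was 56.4 kb, compared with 75.6 kb for the other unbound genes. AANATGGCG occurred in 1.46% of them and in 16.9% of CpG-rich genes with a peak in all 4 lists, and a divergent start in 2.05% against 16.4%.

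Grouped by the stem of their symbols, the CpG-rich unbound genes were most numerous in Tmem (28 of 127 CpG-rich genes), Fam (24 of 90) and Zfp (18 of 183), compared with 19.5% of all 9510 CpG-rich genes. The stems were looked up after the values were seen, so their counts are a description. In some smaller stems all or most CpG-rich genes were unbound. All CpG-rich genes of Wnt (13 of 13), Adamts (extracellular proteases, 11 of 11), Nkx (homeodomain factors, 10 of 10) and Tbx (T-box factors, 6 of 6) were unbound, and so were 12 of 15 of Sox (HMG-box factors), 7 of 8 of Pcdh (protocadherins), 7 of 9 of Cdh (cadherins) and 6 of 10 of Fzd (Wnt receptors). All or most were also unbound in Kcnj (5 of 5), Fgf (5 of 6), Syt (8 of 10), Gdf (4 of 5), Adcy (6 of 8), Chst (6 of 8) and Sema (8 of 13), among others. Of the CpG-rich Zfp genes 9.84% were unbound, and of the 39 CpG-rich Hist1h genes (histones) 8 were (20.5%), near the share of all CpG-rich genes. Of 67 protocadherin genes of all kinds 66 were unbound, with 1 peak, 2.80 kb from Pcdh7, in XistΔ/Δ replicate 1.

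The Hox genes, which set positional identity in the embryo and of which Hoxa9 is a known regulator of blood stem cells, differed between clusters. Of 39 Hox genes 29 were unbound (74.4%, beside 48.3% of all genes): all 9 of the Hoxc cluster and all 9 of the Hoxd cluster, 7 of 10 of Hoxb and 4 of 11 of Hoxa. The median CpG ratio was 0.65 in Hoxc, 0.72 in Hoxd, 0.47 in Hoxb and 0.69 in Hoxa, so the order of the clusters by peaks was not that by CpG ratio. A peak was present in all 4 lists at Hoxa3, Hoxa7 and Hoxa9, in 3 at Hoxa6, Hoxb4 and Hoxb5, in 2 at Hoxa4 and Hoxb2, and in 1 at Hoxa2 and Hoxa10.

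Unbound genes formed runs along the chromosomes. Counting consecutive protein-coding genes in order of position, they formed 3498 runs, of which 1778 were single genes. Runs of at least 10 unbound genes numbered 126 and held 3235 genes (32.2%), whereas runs of at least 10 genes with a peak in any list held 1660 of 10750 genes (15.4%). Without the olfactory and vomeronasal receptor genes, runs of that length held 1825 of 8606 unbound genes (21.2%) and 1678 of 10746 genes with a peak (15.6%), and with unique starts only, a restriction added after the data were seen, 1751 of 8118 (21.6%) and 1639 of 10292 (15.9%). The longest run of unbound genes had 236 members, and the longest run of genes with a peak had 30, from Hist1h4h to Hist1h1a, in the histone cluster on chromosome 13 (chr13:23531050-23764406).

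The 8 longest runs, with a tie of 3 at the end, were led by sensory receptors, keratins, defensins and predicted genes. The first, on chromosome 2 from Aplnr to Olfr1274-ps (chr2:85136225-90403897, build mm10), held 227 olfactory receptors among its 236 genes, spanned 5.27 Mb and contained no peak of any list. The second had 110 genes on chromosome 7 from Gm19345 to Vmn1r183 (chr7:19852003-24063554), 65 of them Vmn1r genes, and the third 102 on chromosome 14 from Gm2888 to Gm45521 (chr14:3030002-7960636), 101 of them predicted genes. In these the share of genes with a unique start was 84.7%, 10% and 2.94%, so the runs of Vmn1r and of predicted genes consisted mostly of repeated sequence. The fourth had 99 genes on chromosome 9 from Panx3 to Olfr986 (chr9:37659902-40190134), 95 of them olfactory receptors.

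The fifth run had 95 genes on chromosome 7 from Olfr557 to Trim6 (chr7:102695910-104235152). It contained the beta globin cluster inside 82 olfactory receptor genes, and no peak of any list lay in its 1.54 Mb. The sixth, 68 genes on chromosome 11 from Krt222 to Krt42 (chr11:99232761-100269871), held 27 keratins and 23 keratin-associated proteins. The other three had 64 genes each: Itga7 to Neurod4 on chromosome 10 (chr10:128933818-130280240) with 60 olfactory receptors, Olfr99 to Crisp2 on chromosome 17 (chr17:37279043-40807003) with 40 olfactory receptors and 15 Esp genes, and Defb40 to Ccdc70 on chromosome 8 (chr8:18974940-21974041) with 24 Defb and 22 Defa genes. The Defb40 run held 36 peaks summed over the 4 lists, all more than 3 kb from a start of its genes.

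The share of unbound genes ran from 40.8% on chromosome 8 to 59.6% on chromosome 14, followed by 57.5% on chromosome 7, 53.4% on chromosome 6 and 51.7% on chromosome 2. Olfactory and vomeronasal receptors numbered 398 on chromosome 7 and 294 on chromosome 2. Without them the shares were 47.2% on chromosome 7 and 42.5% on chromosome 2, but still 57.7% on chromosome 14 and 49.5% on chromosome 6. Without predicted genes as well, chromosome 14 came to 45.5%, and the range was 35.7% on chromosome 11 to 48.3% on chromosome 18. Chromosomes 14 and 7 were also the highest in each library alone, at 67.6% and 68.0% for WT replicate 1, 62.1% and 59.9% for WT replicate 2, 68.0% and 67.3% for XistΔ/Δ replicate 1, and 61.3% and 58.3% for XistΔ/Δ replicate 2.

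**Figure D5:**
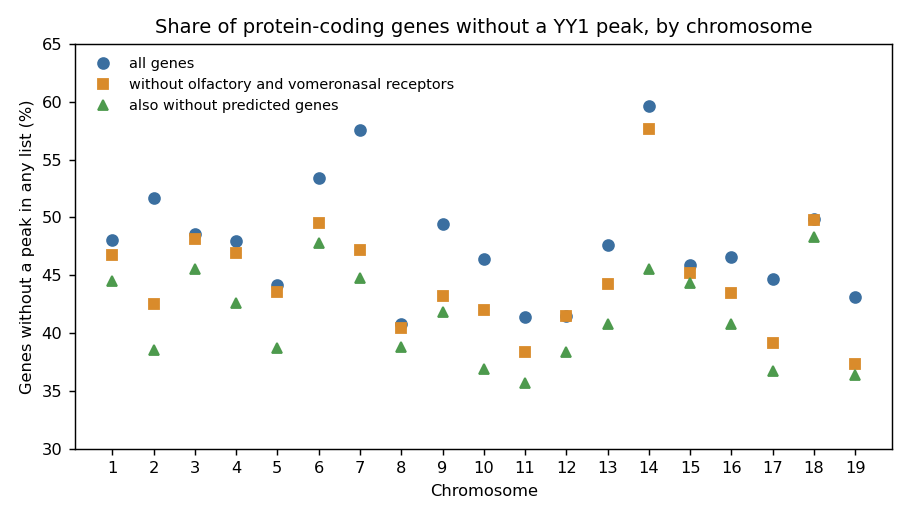
Percentage of protein-coding genes without a peak in any list on each autosome, for all genes (blue circles), without olfactory and vomeronasal receptors (orange squares) and also without predicted genes (green triangles); the vertical axis starts at 30%. Chromosomes 14 and 7 are highest with all genes, at 59.6% and 57.5%, and fall to 45.5% and 44.7% without these groups.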

How the data were processed

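YY1 ChIP-seq was done on chromatin digested with micrococcal nuclease. Per the study's methods and the submitters' processing notes, the authors trimmed reads with Trim Galore, aligned them to mm10 with Bowtie2 (version 2.3.5.1), removed reads of mapping quality under 30 (SAMtools, version 1.10) and duplicates (Picard, version 2.0.1), and called peaks in each library with HOMER (version 4.9.1 in the processing notes, whereas the methods name a different version). Per the file headers no input library was named, the false discovery rate was 0.001, and a peak needed a 4-fold local excess of tags. The deposited lists give peak positions and a score. As that deposited score never differs from 1, only positions were used. Depth was 23.1 to 59.5 M tags per library, and within each genotype the deeper library had more peaks. Between the replicate 1 libraries this order did not hold, with 9553 peaks from 24.9 M tags (WT) and 10075 from 23.1 M tags (XistΔ/Δ). The number in the header's directory names, shared by the replicate 1 libraries and by the replicate 2 libraries, has no stated meaning, and the headers number replicates otherwise than the labels, which were followed.

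Transcript starts came from GENCODE M21 (GRCm38, the build of the files) and were compared with peaks in Python (version 3.11.15, pandas, NumPy and SciPy). A gene was bound in a list when a peak overlapped or lay within 3 kb of any of its transcript starts. CpG ratio, motifs and repeated 50-base words were computed from the reference genome of the same build, and promoter sequences came from RefSeq (GRCm38.p6), which matched 15704 of the 20807 genes by symbol. Genotypes were compared over libraries with exact permutation tests. The labels do not say that replicates came from separate mice, so p-values measure only the spread between these libraries. Scripts were tested on simulated data.

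Named were the 12 stems with most unbound genes, stems of at least 15 genes with all unbound, the 8 with the highest share bound in all 4 lists, the 8 longest runs, all members on the rarer side of each of 46 gene lists where 10 or fewer, and the 3 genes on each side of the limit and the 3 farthest. Some genes that this rule names are not reported here. The genes described and the lists were chosen with earlier results of these data known. Alternatives were other distances, starts and gene sets, equal list lengths, regions called in at least 2 lists, and leaving out each library.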

Additional observations from a re-analysis of the deposited data

How the results depend on the processing

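The count of 10057 genes without a peak became 8118 when only unique starts were counted and 11230 when every list was shortened to the same number of peaks. The 8118 are out of 18410 genes with a unique start (44.1%, beside 48.3% of all genes), so part of that fall is the smaller gene set. The count was 10430, 9687 and 8923 at 1, 5 and 10 kb. It was from 10072 to 10473 when 1 library was left out, which can only raise it. The median CpG ratio of unbound genes minus that of genes bound in all 4 lists was -0.52, and it became -0.55 with a window of 250 bp before to 50 bp after the start, -0.51 at 10 kb and -0.48 with unique starts only. In alternatives chosen after seeing the data it was -0.51 with the highest ratio over all starts of a gene and -0.47 without olfactory and vomeronasal receptors. The number of genes in runs of at least 10, 3235, became 4854 in runs of at least 5, 1825 without olfactory and vomeronasal receptors and, added after seeing the data, 1751 with unique starts only.

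The genotype differences did not keep their direction. The share without a peak differed by -0.60 percentage points (XistΔ/Δ minus WT), by 0.50 with the same number of peaks, and by -5.37 to 4.18 when 1 library was left out. It turned positive, at 3.49 and 4.18, when WT replicate 1 or XistΔ/Δ replicate 2 was removed, and it was -4.68 and -5.37 on removal of WT replicate 2 or XistΔ/Δ replicate 1. The distance differed by -4.57 kb, by 0.40 kb with the same number of peaks, and by -23.4 to 14.3 kb when 1 library was left out. The same removals gave 12.02 and 14.3 kb, then -21.2 and -23.4 kb. Leaving out a library also changes the depth of its group, and the deeper libraries had fewer genes without a peak. With the replicate block the differences were -0.60 percentage points (exact permutation test of the paired differences, p = 1) and -4.57 kb (p = 0.5, the smallest that 2 pairs allow). Across 20807 genes, the replicate 1 minus replicate 2 difference in having a peak correlated between genotypes (r = 0.383, over genes, which are not independent). In both genotypes replicate 2 was the deeper library (WT 50.0 against 24.9 M tags, XistΔ/Δ 59.5 against 23.1 M tags). The part of depth in this correlation was not tested, and the samples otherwise share only a number.

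Peaks were called without an input library and needed 22 to 37 tags, so absence of a peak is absence of a call at these depths.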
